A study of Mus musculus with 4 samples.

Results

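The genes described here take fatty acids into the heart muscle cell and oxidise them: 33 genes chosen by symbol, of which 28 had at least 1 probe set with a single gene symbol among the 8251 named genes of the array. For Acsl1, Cpt1b, Hadha, Acot2 and Ucp2 no array signal was used here. Of the 28, 27 passed the filter on dim probe sets and were tested, and Acadvl did not pass. RNA came from whole hearts of male mice aged 8 to 16 weeks on a mixed 129/Black Swiss background, wild type or heterozygous, in 2 pools of 5 hearts for each genotype. A pool hides the differences between its animals, and nothing says whether the pools of a genotype were separate experiments, so the p-values measure only the spread between these 4 samples. Values are array signals on a linear scale, comparable between pools for 1 probe set and not between probe sets. Changes are log2 of heterozygous over wild type, each with limma's standard error (SE).

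Long-chain fatty acids are the main fuel of the adult heart. Lipoprotein lipase frees them at the vessel wall, CD36 and a transport protein bring them across the cell membrane, and a binding protein carries them through the cytosol. After activation they enter the mitochondrion as carnitine esters, are shortened in repeated cycles of beta-oxidation, and pass electrons to the respiratory chain through a flavoprotein. Nuclear receptors of the PPAR and ERR families, with their partner RXR, are known to control many of these genes.

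Most tested fatty acid genes were higher in the heterozygous pools, with such genes in every role compared. Not every step was covered: no signal of Acsl1, the member for activation, was used. The outer membrane step of the shuttle was read only by Cpt1a, which did not rise. Of the 27 tested members 24 rose, none fell and 3 did not pass, where 17.9% of all tested probe sets were called higher and 20.4% lower. By limma, 0 members were lower at an unadjusted p under 0.05 too. Their median log2 change was 0.76, a 1.70-fold difference, against 0.001 over all tested probe sets. In 25 of the 27 both heterozygous pools lay above both wild-type pools, an order seen in 34.6% of all tested probe sets. Among the roles, the median log2 change was 0.57 for uptake and storage (5 genes), 1.00 for the carnitine shuttle (4 genes), 0.78 for oxidation (11 genes), 0.71 for electron transfer (3 genes) and 0.94 for thioesterase, uncoupling and control (4 genes). The roles hold few genes each, and no test was made between them. A whole-heart sample cannot separate fewer cells of a type from less RNA per cell.

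**Figure D1:**
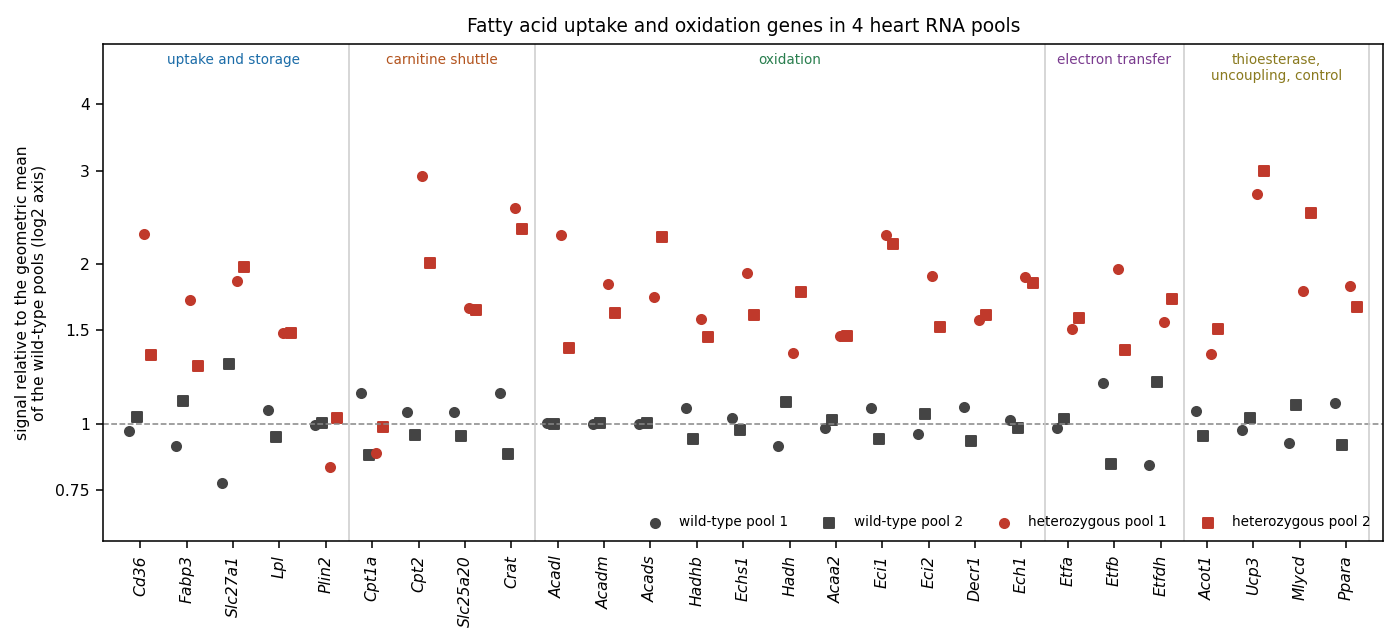
Signal of each tested fatty acid gene in every pool, divided by the geometric mean of its wild-type pools (log2 axis; circles pool 1, squares pool 2, grey wild type, red heterozygous). The red points lie above the grey ones for 25 of 27 genes, and overlap them for Plin2 and Cpt1a.

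In uptake and storage, 4 of 5 tested genes rose and Plin2 did not. Lpl, the lipoprotein lipase, had signals of 46650 and 41463 in wild type and 65124 and 65288 in heterozygous pools. The heterozygous pools were nearly equal and lay above both others, a 1.48-fold rise (log2 change 0.57, SE 0.13, adjusted p = 0.00759), and its dimmer probe set rose 1.98-fold. Slc27a1, a fatty acid transport protein of the cell membrane, gave 1287 and 2154 in wild type and 3090 and 3290 in heterozygous pools. It rose 1.92-fold although its wild-type pools were far apart (log2 change 0.94, SE 0.24, adjusted p = 0.0136). Cd36, the fatty acid translocase, measured 1815 and 1931 in wild type and 4265 and 2526 in heterozygous pools. Its heterozygous pool 1 stood well above pool 2, so the 1.75-fold rise had a wide error (log2 change 0.81, SE 0.24, adjusted p = 0.0258). Fabp3, the heart-type fatty acid binding protein, rose 1.48-fold with a similar split, at 33953 and 41321 in wild type and 63960 and 48204 in heterozygous pools (log2 change 0.57, SE 0.17, adjusted p = 0.0268). The call of Fabp3 was kept in 7 of 15 alternative settings, the fewest of any member called higher. Plin2, a coat protein of lipid droplets, gave 3294 and 3318 in wild type and 2737 and 3395 in heterozygous pools. Its groups overlapped (log2 change -0.12, SE 0.17, adjusted p = 0.616).

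The carnitine shuttle held the largest increases after that of Ucp3, in Crat and Cpt2, and a gene that did not rise. Crat, carnitine acetyltransferase, which buffers acetyl-CoA, gave 6583 and 5045 in wild type and 14697 and 13406 in heterozygous pools. Both heterozygous pools were over double the brighter wild-type pool, a 2.44-fold rise (log2 change 1.28, SE 0.16, adjusted p = 5.1e-04), and a second, dimmer probe set rose 2.07-fold. Cpt2, which returns the acyl group to coenzyme A inside the mitochondrion, measured 9027 and 8173 in wild type and 25175 and 17246 in heterozygous pools. It rose 2.43-fold, with heterozygous pool 1 well above pool 2 (log2 change 1.28, SE 0.18, adjusted p = 9.7e-04). Slc25a20, the carnitine-acylcarnitine carrier of the inner membrane, rose 1.64-fold, from 6167 and 5548 to 9665 and 9567 (log2 change 0.72, SE 0.14, adjusted p = 0.00400). Cpt1a, the liver-type form of the outer membrane enzyme that commits fatty acids to the shuttle, gave 3805 and 2913 in wild type and 2933 and 3285 in heterozygous pools. The groups overlapped (log2 change -0.10, SE 0.18, adjusted p = 0.691). No array signal of the muscle-type form, Cpt1b, was used here. Within each array, Cpt2 relative to Cpt1a was 2.60-fold higher in the heterozygous pools, Crat 2.61-fold and Slc25a20 1.76-fold. The pairs were chosen with these changes known, so the ratios restate them and test nothing further.

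All 11 tested oxidation genes rose, by 1.46-fold to 2.22-fold. Eci1, an isomerase that moves double bonds of unsaturated fatty acids, changed most: its signals were 8510 and 7443 in wild type and 18073 and 17342 in heterozygous pools (log2 change 1.15, SE 0.14, adjusted p = 3.5e-04). The pools of a genotype lay close together and far from the other genotype. Ech1, which acts on another double-bond position, rose 1.86-fold with still less spread, from 26735 and 25761 to 49558 and 48314 (log2 change 0.90, SE 0.12, adjusted p = 7.1e-04). The other genes for unsaturated fatty acids, Eci2 and the reductase Decr1, rose 1.70-fold and 1.59-fold.

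The chain-length-specific acyl-CoA dehydrogenases, which make the first double bond of each cycle, rose as well. Acads, for short chains, went from 1940 and 1946 to 3372 and 4370 (1.98-fold; log2 change 0.98, SE 0.18, adjusted p = 0.00274). Its wild-type pools were almost equal and its heterozygous pools apart, and its dimmer probe set did not pass (log2 change 0.49, adjusted p = 0.0985). Acadm, for medium chains, rose 1.72-fold, from 24204 and 24312 to 44551 and 39195 (log2 change 0.78, SE 0.13, adjusted p = 0.00180). Acadl, for long chains, measured 6988 and 6952 in wild type and 15790 and 9701 in heterozygous pools. Its 1.78-fold rise came with heterozygous pools far apart (log2 change 0.83, SE 0.21, adjusted p = 0.0147). Acadvl, for very long chains, could not be assessed: its brighter probe set read 72.0 and 9.2 in wild type and 111.0 and 30.6 in heterozygous pools, around the floor of 36.25.

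Later steps of the cycle rose by 1.46-fold to 1.76-fold. Echs1, the short-chain hydratase, rose 1.76-fold (log2 change 0.81, SE 0.15, adjusted p = 0.00274) and Hadh, the dehydrogenase that follows it, 1.55-fold (log2 change 0.63, SE 0.17, adjusted p = 0.0189). Hadhb, the thiolase subunit of the trifunctional protein, gave 30849 and 26922 in wild type and 45318 and 41931 in heterozygous pools, a 1.51-fold rise (log2 change 0.60, SE 0.13, adjusted p = 0.00764). Acaa2, a thiolase that releases acetyl-CoA, had the smallest rise of the role, 1.46-fold, from 62162 and 64205 to 92342 and 92421 (log2 change 0.55, SE 0.12, adjusted p = 0.00666). Its pools of a genotype were nearly equal, but the call depended on the scaling: the log2 change was 0.15 with cyclic loess (adjusted p = 0.295) and 0.26 with quantile normalization (adjusted p = 0.0827). It also ended without heterozygous pool 1 (adjusted p = 0.0822) or pool 2 (adjusted p = 0.0835).

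The electron transfer genes moved by nearly the same amount. Etfa and Etfb, the subunits of the flavoprotein that accepts electrons from the dehydrogenases, rose 1.54-fold and 1.64-fold, and Etfdh, which hands them to ubiquinone, rose 1.63-fold. Etfa had the tightest pools, 13452 and 13967 against 20662 and 21699 (log2 change 0.63, SE 0.13, adjusted p = 0.00504). Etfb varied within both genotypes, with 24361 and 17142 in wild type and 39955 and 28184 in heterozygous pools (log2 change 0.72, SE 0.21, adjusted p = 0.0256), and the dim second probe set did not pass (0.07, adjusted p = 0.875). Etfdh gave 4499 and 6448 in wild type and 8383 and 9242 in heterozygous pools (log2 change 0.71, SE 0.19, adjusted p = 0.0162).

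Ucp3, an uncoupling protein of the inner membrane of muscle mitochondria, had the largest rise of all members. Its signals were 339.3 and 358.0 in wild type and 945.7 and 1045 in heterozygous pools, a 2.85-fold difference (log2 change 1.51, SE 0.25, adjusted p = 0.00170). Mlycd, malonyl-CoA decarboxylase, which removes the inhibitor of the outer carnitine transferase, rose 2.11-fold, from 2290 and 2702 to 4434 and 6209 (log2 change 1.08, SE 0.20, adjusted p = 0.00285). Ppara, the nuclear receptor that drives fatty acid oxidation genes, rose 1.74-fold, from 2447 and 2040 to 4068 and 3716 (log2 change 0.80, SE 0.16, adjusted p = 0.00548). For each of these genes the lower heterozygous pool exceeded the higher wild-type pool. Acot1, a cytosolic thioesterase, read 667.0 and 598.7 in wild type and 855.3 and 954.3 in heterozygous pools. Its pools did not overlap, but it did not pass (log2 change 0.52, SE 0.22, adjusted p = 0.0941), and its probes may also bind transcripts of the closely related Acot2. Acot1 was called higher with arrays at a common median (0.69, adjusted p = 0.0307) and with quantile normalization (0.68, adjusted p = 0.0374).

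The heterozygous pools themselves differed by over 1.3-fold for 7 of the 27 members, and not in a common direction: Cd36, Fabp3, Cpt2, Acadl and Etfb were brighter in pool 1, and Hadh and Mlycd in pool 2. The wild-type pools differed by as much for 5 members, Slc27a1, Cpt1a, Crat, Etfb and Etfdh. Over all 27, heterozygous pool 1 was the brighter for 14 and pool 2 for 13. Leaving out heterozygous pool 1 reduced the members called higher from 24 to 9, and leaving out pool 2 reduced them to 14. Over all tested probe sets the share called higher dropped as well, from 17.9% to 8.47% and 8.45%. Without wild-type pool 1 or wild-type pool 2 the members called higher were 19 or 23, beside 13.8% and 15.1% of all. Crat, Eci1, Ech1, Cpt2, Ucp3, Acadm, Acads and Mlycd stayed called with any 1 pool left out.

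With no filter on dim probe sets, 6 members were called higher (Slc25a20, Crat, Eci1, Ech1, Etfa and Ucp3), where 3.88% of all 12422 probe sets were. Without the mean-variance trend 18 members were, beside 14.6% of all. Cyclic loess, which evens out differences between arrays along the range of signal, left 18 members called higher, beside 16.6% of all. The calls it ended were those of Fabp3 (log2 change 0.22), Lpl (0.20), Hadhb (0.27), Hadh (0.46), Acaa2 (0.15) and Etfb (0.43). Quantile normalization ended the calls of Fabp3 (0.40) and Acaa2 (0.26) and added that of Acot1, for 23 members beside 20.3% of all.

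Cardiac muscle genes also rose: of 26 tested genes of the sarcomere and of muscle energy transfer, 20 rose, with a median log2 change of 0.67. Lymphocyte and thymus markers fell in 15 of 15 cases, with summed signals of 151761 and 153002 in wild type and 18986 and 18600 in heterozygous pools, and their part in the rise of the fatty acid genes was not tested. Arrays were also centred on the mean log2 signal of the 26 muscle genes, which lowered every log2 change by 0.68. The muscle genes themselves then ranged from -1.11 to 1.19, with 2 called higher and 5 lower. On that scale the median log2 change of the fatty acid members was 0.083. Ucp3 (log2 change 0.83, SE 0.25, adjusted p = 0.0191), Crat (0.60, SE 0.15, adjusted p = 0.00956), Cpt2 (0.60, SE 0.18, adjusted p = 0.0204) and Eci1 (0.47, SE 0.13, adjusted p = 0.0128) were higher relative to the muscle mean, though not to every muscle gene. The dimmer probe set of Crat did not pass on that scale (0.37, adjusted p = 0.116). Plin2 (-0.80, SE 0.17, adjusted p = 0.00359) and Cpt1a (-0.78, SE 0.17, adjusted p = 0.00474) were lower relative to the muscle mean. Those 4 higher and 2 lower calls among 27 members stood beside 2.31% and 56.1% of all tested probe sets. The other 21 members, Ppara and every electron transfer gene among them, did not pass relative to the muscle mean.

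**Figure D2:**
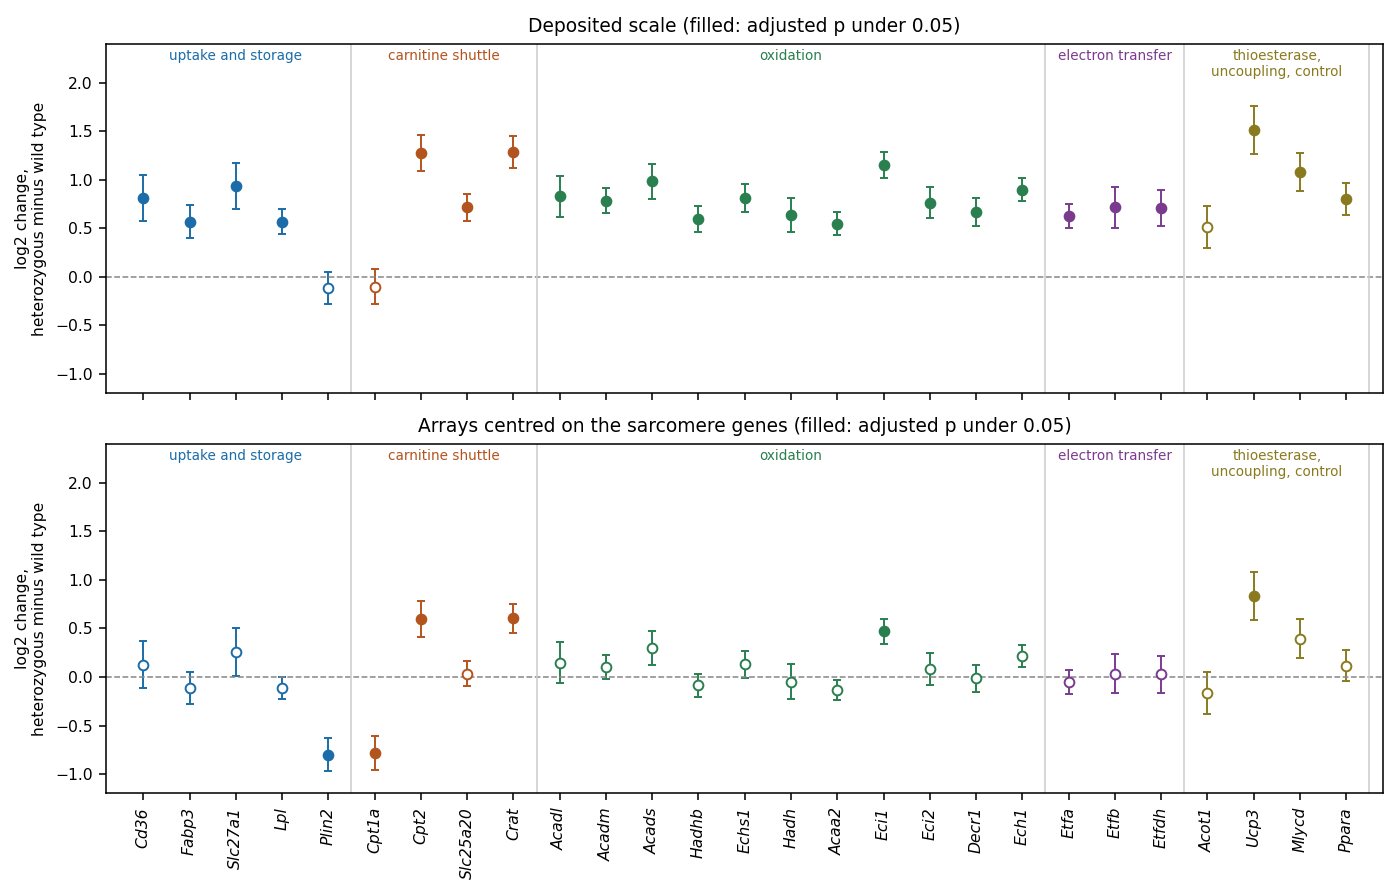
Log2 change of each tested fatty acid gene with limma's SE as the bar, on the deposited scale (top) and with arrays centred on muscle genes (bottom); filled points have an adjusted p under 0.05. Centring moves all points down by 0.68, and Ucp3, Crat, Cpt2 and Eci1 are then the genes called higher, and Plin2 and Cpt1a those called lower.

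Other mitochondrial genes also rose, with no test made between the lists. Citrate cycle genes rose in 16 of 17 cases, with a median log2 change of 0.74, and respiratory chain and ATP synthase genes in 40 of 55, with a median of 0.56. In either list 0 genes fell by limma, also at an unadjusted p under 0.05. Endothelial markers rose in 8 of 9 cases, their summed signals going from 18897 and 17423 to 37210 and 32786. Vessel cells are known to hold Lpl and Cd36 as well, and the part of the vessel markers in those values was not tested. Lung epithelium markers rose in 2 of 2 cases, Sftpc, a surfactant protein, by 2.25 on the log2 scale (adjusted p = 1.5e-04) and Scgb1a1, a secretory protein of airway cells, by 1.32 (adjusted p = 2.2e-04). The summed signals of the 4 lung markers with a probe set went from 21739 and 18745 to 55042 and 47421. Red cell markers rose in 2 of 3 cases, Alas2 (0.90) and Slc4a1 (0.97), and the globin gene Hba-a1 did not pass (0.23, adjusted p = 0.174). Summed over the 4 red cell markers with a probe set, signals were 144193 and 128768 in wild type and 160908 and 176784 in heterozygous pools. The part of lung tissue or blood in the rise of the fatty acid genes was not tested. Of 7 macrophage markers 1 rose and 1 fell. Among adipocyte markers, of fat tissue that can be dissected with a heart, 3 of 9 fell (Retn, Fasn and Thrsp) and 0 were called higher, by limma also at an unadjusted p under 0.05. With arrays at a common median 2 of the 9 were called higher and 2 lower, where 1945 of all 7453 tested probe sets were higher and 1167 lower. Fabp4 (0.45) and Lep (0.42) had positive log2 changes that did not pass. Both heterozygous pools lay above both others for 3 of the 9 markers and below them for 4. Over all 5692 named genes tested, these orders held for 2058 and 1966. The summed signals of the 9 were 91215 and 89645 in wild type and 78496 and 73009 in heterozygous pools. These sums include Fasn, described again below, which alone went from 16668 and 13452 to 7354 and 6646. Fast skeletal fibre markers fell in 6 of 9 cases. The 9 tested cardiomyocyte markers, each also among the 26 muscle genes above, were bright in every pool and 7 of them rose. None of these lists had a marker below the floor in all 4 pools.

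**Figure D3:**
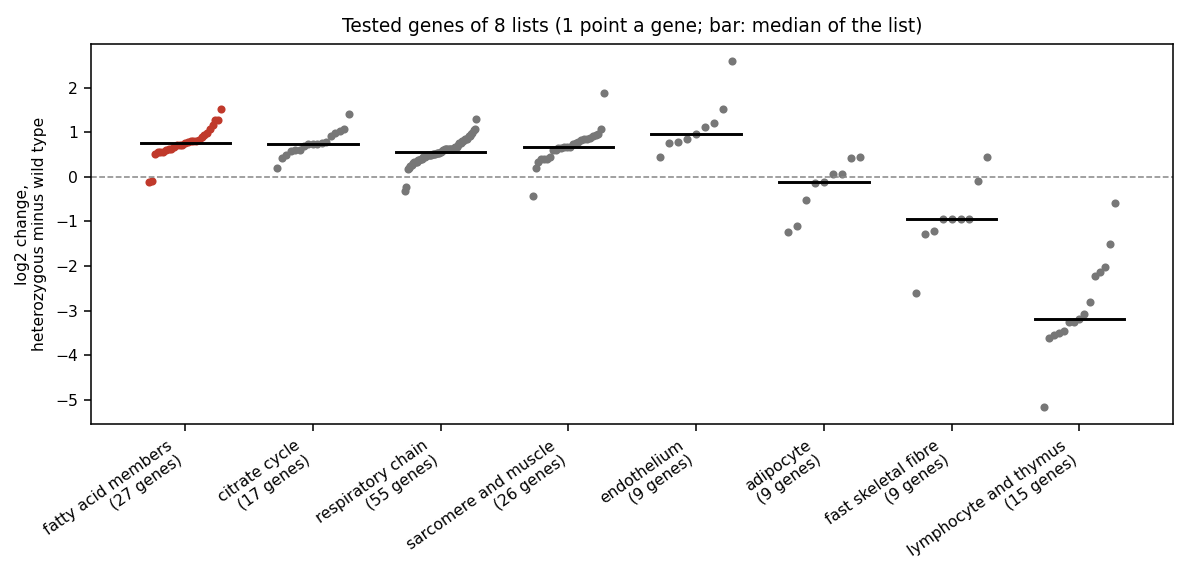
Log2 change of every tested gene in 8 lists, with the median of each list as a bar. The fatty acid genes (median 0.76) are shown beside the citrate cycle (0.74), muscle (0.67) and respiratory chain (0.56) genes, and the lymphocyte and thymus markers lie far below (-3.18).

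Fatty acid genes outside the core route changed in both directions. Of 40 further tested genes of fatty acid handling, 14 rose, 4 fell and 22 failed to pass, and the median log2 change was 0.31. Pdk4, a kinase that holds back glucose oxidation when fatty acids are burned, is the largest of these increases, at 3743 and 3772 in wild type against 15033 and 13991 (3.86-fold; log2 change 1.95, SE 0.14, adjusted p = 2.3e-05). Plin4, a lipid droplet protein of muscle and fat, rose 2.79-fold (log2 change 1.48, SE 0.17, adjusted p = 2.8e-04) although Plin2 did not. Within arrays Plin4 relative to Plin2 was 3.03-fold higher, a pair chosen with both changes known. Oxct1, which activates ketone bodies for oxidation, rose 2.37-fold, Vldlr, a lipoprotein receptor that works with lipoprotein lipase, 2.24-fold, and Pnpla2, the lipase that opens stored triglyceride, 2.05-fold. The second probe set of Vldlr did not pass (log2 change 0.73, adjusted p = 0.0579). Pdk4 (1.27), Plin4 (0.80) and Oxct1 (0.56) were also higher relative to the muscle mean. Vldlr (0.48, adjusted p = 0.104) and Pnpla2 (0.35, adjusted p = 0.0703) did not pass on that scale.

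The 4 genes that fell make, desaturate or activate fatty acids, but not every gene of such roles fell: the desaturase Scd1 had a log2 change of -0.12 (adjusted p = 0.506), and Gpam, which starts glycerolipid synthesis, rose (0.71, adjusted p = 0.00570). Scd2, a desaturase, dropped from 14187 and 12728 to 2925 and 3848 (4.01-fold; log2 change -2.00, SE 0.17, adjusted p = 5.7e-05), and a second probe set fell alike. Fasn, the fatty acid synthase, went from 16668 and 13452 to 7354 and 6646 (2.14-fold; log2 change -1.10, SE 0.15, adjusted p = 8.2e-04). The acyl-CoA synthetases Acsl5 and Acsl4 fell 1.71-fold and 1.65-fold. Acsl4 was not called in 8 of its alternatives. Among them were the fits without heterozygous pool 1, heterozygous pool 2 or wild-type pool 2 (log2 changes of -0.74, -0.71 and -0.40). Acsl5 was not called without heterozygous pool 1 or wild-type pool 2 (-0.62 and -0.57), nor with no filter on dim probe sets. The decreases of Fasn and Scd2 stood beside the fall of the lymphocyte and thymus markers, whose part in them was not tested.

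Among 13 tested regulators other than Ppara, 4 rose and 1 fell. Rxrg, the RXR form of muscle, went from 541.1 and 548.2 to 1212 and 1516 (2.49-fold; log2 change 1.32, SE 0.21, adjusted p = 0.00172). Its sister genes did not pass: Rxra had a log2 change of 0.26 (adjusted p = 0.357) and Rxrb one of -0.14 (adjusted p = 0.541). Relative to the mean of the muscle genes, Rxrg was still higher (0.63) and Rxrb lower (-0.82). Sirt3, a mitochondrial deacetylase, rose 2.16-fold, from 756.2 and 878.7 to 1672 and 1852. Esrra, the receptor ERR-alpha, rose 1.88-fold on its brighter probe set and 1.52-fold on the other, a call that ended without heterozygous pool 2 (0.78). Lpin1, a partner of these receptors that also works in lipid synthesis, rose 1.69-fold. Relative to the muscle mean, Sirt3 (0.43, adjusted p = 0.088), Esrra on its brighter probe set (0.23, adjusted p = 0.257) and Lpin1 (0.077, adjusted p = 0.666) did not pass. Nrip1, a corepressor, had a log2 change of -0.57 (adjusted p = 0.0321), a call that ended with any 1 pool left out (-0.66 to -0.48). Log2 changes of Ncoa1 (0.76), Prkag1 (0.54), Prkab1 (0.34), Nr2f2 (0.22), Med1 (0.13) and Pparg (0.06) did not pass. Ppard, Ppargc1a and Tfam were too dim to be tested.

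**Figure D4:**
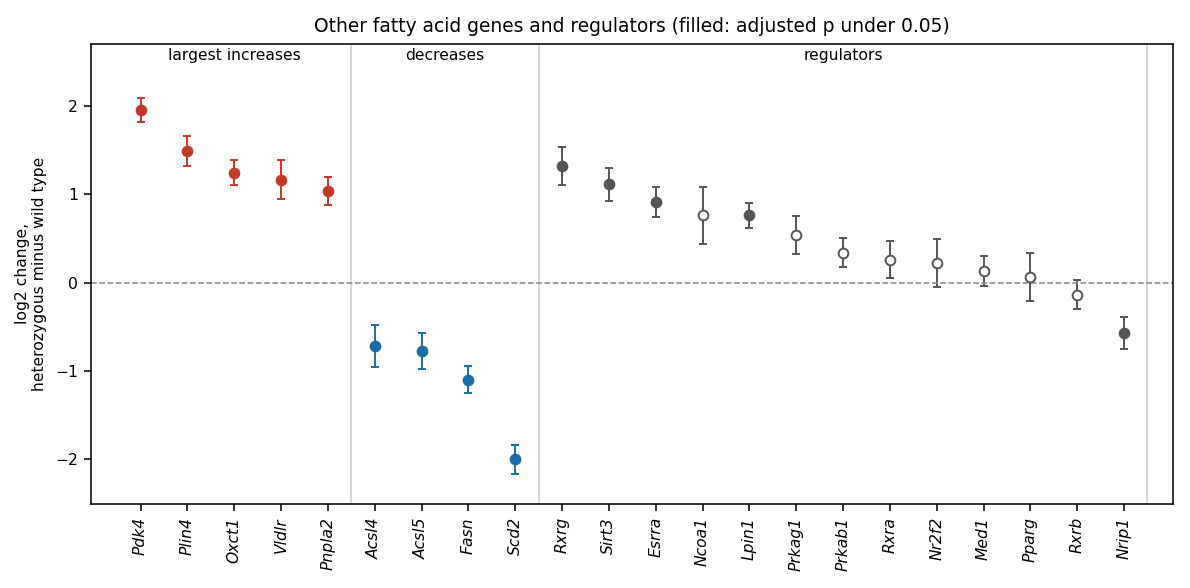
Log2 change with limma's SE for the 5 largest increases and all 4 decreases among other fatty acid genes and for 13 regulators; filled points have an adjusted p under 0.05. Pdk4 (1.95) and Scd2 (-2.00) are the extremes, and Rxrg (1.32) is the highest regulator.

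Because the members rose together and PPAR, RXR and ERR proteins bind versions of the hexamer AGGTCA, the 250 bases before the annotated start were searched for it on both strands in RefSeq promoters (GRCm38.p6). Promoters of 28 of the 33 genes were found, 24 with a probe set and 4 without, 31 windows in all, and 7 windows (22.6%) held AGGTCA, against 14.0% of all 32851 windows. These were the windows of Acadm, Acadvl, Cd36, Cpt1a, Echs1, Plin2 and Ucp3, so the hexamer lay before genes that rose and before both tested genes whose pools overlapped. GGGCGG, the GC box, was in 61.3% of member windows and 32.7% of all windows, CCAAT in 45.2% and 33.8%, and TATAAA in 0 of 31 and 12.4%. Windows are shown from 5′ to 3′ along each gene's strand for Ucp3 and Echs1, which rose, and Plin2 and Cpt1a, which did not. These were picked as examples. The windows of Acadm and Cd36, which also rose, and of Acadvl, which was not tested, are not shown. Capitals mark AGGTCA or its reverse complement.
Ucp3, chr7:100472741-100472990, plus strand: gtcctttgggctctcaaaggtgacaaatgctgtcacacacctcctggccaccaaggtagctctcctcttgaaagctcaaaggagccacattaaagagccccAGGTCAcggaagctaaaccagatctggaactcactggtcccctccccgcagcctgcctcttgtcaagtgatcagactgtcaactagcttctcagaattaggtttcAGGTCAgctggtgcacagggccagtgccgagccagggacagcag
Echs1, chr7:140116422-140116671, minus strand: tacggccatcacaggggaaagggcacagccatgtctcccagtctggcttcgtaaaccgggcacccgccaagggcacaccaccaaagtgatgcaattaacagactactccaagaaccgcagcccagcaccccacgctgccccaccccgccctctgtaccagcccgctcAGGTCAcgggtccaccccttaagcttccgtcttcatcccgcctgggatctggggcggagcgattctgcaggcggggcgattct
Plin2, chr4:86670060-86670309, minus strand: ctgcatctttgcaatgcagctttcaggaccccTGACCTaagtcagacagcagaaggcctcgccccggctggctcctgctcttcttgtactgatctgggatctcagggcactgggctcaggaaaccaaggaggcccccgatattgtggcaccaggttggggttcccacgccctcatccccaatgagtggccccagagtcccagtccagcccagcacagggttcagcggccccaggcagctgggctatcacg
Cpt1a, chr19:3323051-3323300, plus strand: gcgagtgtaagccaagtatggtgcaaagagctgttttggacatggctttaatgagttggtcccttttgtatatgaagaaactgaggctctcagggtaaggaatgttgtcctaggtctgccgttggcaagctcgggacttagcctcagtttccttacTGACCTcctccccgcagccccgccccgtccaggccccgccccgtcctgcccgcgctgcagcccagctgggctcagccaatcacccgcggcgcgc
The hexamer starts 149 and 44 bases before the start of Ucp3 and 83 bases before that of Echs1, on the gene's own strand. In Plin2 and Cpt1a its reverse complement begins 218 and 94 bases before the start. Strand and position of the hexamer were not compared between genes that rose and genes that did not. A match is a description of these letters and not evidence of binding, and the arrays measured no binding.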

How the data were processed

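Array signals were used as the authors deposited them: linear intensities, 1 per probe set and pool, already close to a common trimmed mean. No source used here gives the method that summarised probes. Precision is limited by the number of pools. The altered gene itself is not reported here.

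Signals under the 10th percentile (36.25) were raised to it before log2. Of 12422 probe sets without controls, the dimmest 40% by mean were left out and 7453 tested with limma 3.58.1 in R 4.3.3: lmFit and eBayes with trend, genotype as the only term, all 4 pools, two-sided p-values with Benjamini-Hochberg adjustment over all tested probe sets, threshold 0.05. Exact permutation of 2 pools against 2 cannot go below p = 0.333. A gene was read at its brightest probe set with 1 symbol. Other tested probe sets are given where their call on the deposited scale differs.

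Members, lists and tests were chosen with earlier results of these data known, and 2 list symbols (Mmut, Atp5pb) were later updated to current names. Named genes are all members, the 5 largest called increases and decreases (4 were called) among other fatty acid genes, and all tested regulators. Alternatives varied scaling, floor, filter, moderation, pool block and pools used. Plots used matplotlib 3.10.9.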

Additional observations from a re-analysis of the deposited data

How the results depend on the processing

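Raising the floor to the 20th percentile or lowering it to the 5th, robust moderation and the pool number as a replicate block left the call of each of the 27 members as it was. Leaving out the dimmest 60% did so for the 25 still fitted. With the replicate block 24 members were again called higher and 0 lower, and 1445 probe sets were higher and 1590 lower. The labels do not say that equal numbers pair pools, and deviations of equally numbered pools correlated at 0.16.

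Without the filter on dim probe sets, 6 members were called higher, as were 482 probe sets (724 lower); the cause was not tested. With arrays centred on muscle genes, 4 members were higher and 2 lower, with 172 probe sets higher and 4180 lower. The median log2 change of the members was then 0.083, and by role -0.11 for uptake and storage, 0.32 for the shuttle, 0.10 for oxidation, 0.027 for electron transfer and 0.26 for thioesterase, uncoupling and control. The 7 called members that turned below 0 by this construction were Fabp3 (-0.11), Lpl (-0.11), Hadhb (-0.084), Hadh (-0.047), Acaa2 (-0.13), Decr1 (-0.015) and Etfa (-0.054), and Med1 was called lower (-0.56). The dimmer probe set of Lpl stayed above 0 (0.30, adjusted p = 0.0712) and was not called.

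With a common median, which moved the median over all probe sets to 0.18, higher calls were 62.5% of all calls in place of 46.8%, and the medians were 0.94 for the members and, in the same order of roles, 0.75, 1.18, 0.96, 0.89 and 1.12. Cyclic loess gave 0.57 for the members, 0.22 for uptake and storage, 0.81 for the shuttle, 0.57 for oxidation and 0.43 for electron transfer. Quantile normalization gave 0.68 for the members and 0.57 for electron transfer. Members called higher were 18 with cyclic loess and 23 with quantile normalization.

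With single pools left out, members called higher ranged from 9 to 23 and members called lower stayed at 0. Probe sets called higher ranged from 630 to 1125 and lower from 1077 to 1164. Medians ranged from 0.68 to 0.83 for the members, 0.43 to 0.77 for uptake and storage, 0.86 to 1.07 for the shuttle, 0.68 to 0.88 for oxidation, 0.60 to 0.66 for electron transfer and 0.85 to 1.03 for the remaining role. Such a fit leaves a genotype with 1 pool, which is assumed to vary like the other genotype.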
